A study of Ovis aries with 6 samples.

Results

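The miR-379 to miR-410 cluster is the run of miRNA genes that lies in the imprinted DLK1-DIO3 region, which RefSeq places on sheep chromosome 18 (assembly ARS-UI_Ramb_v3.0). Its members were chosen by name. A list of 55 member names was set against the deposited counts, and a miRNA was kept when its name equalled a listed member with or without a 5p or 3p arm. Of 10430 miRNA names in the counts, 103 belonged to the cluster. They came from 151 of 11161 listed sequences, because a name can occur for sheep, rat, mouse and human and the sequence with the highest total stood for it. Of the 55 listed members 54 were found, and miR-323 without a letter was absent. Sheep sequences gave 90 of the names, sequences listed for other species gave 11, and 2 (miR-656-3p and miR-656-5p) came from a locus predicted on chromosome 18.

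Small RNA was sequenced from longissimus muscle, the long muscle of the back, of 2 sheep breeds kept under natural conditions. There were 3 libraries from Qianhua Mutton Merino (QHMM), a meat breed, and 3 from Small Tail Han (STH). The breeds were compared without any treatment, and the labels give neither age nor genotype. They do not say that each library came from a separate animal, so that the p-values given here cover only the spread from library to library.

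Mammals with a placenta carry this cluster between DLK1 and DIO3. The miRNAs are processed from long noncoding RNA made from the maternal chromosome, downstream of GTL2 (also called MEG3), and the same region holds the callipyge mutation that enlarges the hindquarter muscles of sheep. Each hairpin can give a mature miRNA from its 5p and from its 3p arm, and the bases 2 to 8 of a mature miRNA, its seed, do most of the pairing with target mRNAs.

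The miR-376 family held the most abundant member and the groups of common seed with the highest summed levels. miR-376a-5p and miR-376c-5p, whose seeds no other member has, are left out. The other sequences of the family are shown because those with a common seed differ at few bases or none. They are written 5′ to 3′ as deposited, with T for U and with the seed in capitals.
miR-376c-3p: aACATAGAggaaattccacgt
miR-376e-3p: aACATAGAggaaaatccacatt
miR-376b-3p: aTCATAGAggaaaatccatgt
miR-376d: aTCATAGAggaaaatccacat
miR-376a-3p: aTCATAGAggaaaatccacgt
miR-376b-5p: gGTGGATAttccttctatgttt
miR-376e-5p: gGTGGATAttccttctatgttt

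The seed ACATAGA was common to miR-376c-3p and miR-376e-3p, and the seed TCATAGA to miR-376b-3p, miR-376d and miR-376a-3p. No known name outside the cluster had either seed, and predicted loci without a known name were not searched. miR-376b-5p and miR-376e-5p were the same 22 nt and had total counts of 1952 and 1931. How a read that matches both was counted is not stated, so that the split between these names, and between the near-identical 3p names, is uncertain.

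The next sequences belong to other abundant members and to members named in the comparisons below.
miR-381-3p: aTATACAAgggcaagctctct
miR-381-5p: aGCGAGGTtgccctttgtat
miR-411a-5p: aTAGTAGAccgtatagcgtacg
miR-494-3p: tGAAACATacacgggaaacctct
miR-379-5p: tGGTAGACtatggaacgtaggc
miR-299-5p: tGGTTTACcgtcccacatacat
miR-299b-5p: cGGTTTACcgtcccacatac
miR-758-3p: tTTGTGACctggtccactaa
miR-487a-3p: aTCATACAgggacatccagttt
miR-377-3p: aTCACACAaaggcaactttcgt

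Further pairs from different hairpins had a common seed, and they are shown because a common seed means a common set of possible target sites.
miR-411a-3p: tATGTAACacggtccactaac
miR-379-3p: tATGTAACatggtccactaact
miR-411b-5p: tGGTCGACcataaaacgtacgt
miR-412-3p: tGGTCGACcagttggaaagtaat
miR-329b-3p: aACACACCtggttaacctcttt
miR-329a-3p: aACACACCtggttaaccttttt

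Among the sheep sequences, 9 seeds were carried by names of at least 2 hairpins. With the names from other species the number was 12, but the added ones join rat names to a sheep name of the same miRNA, such as miR-299b-5p to miR-299-5p, and are not shown to come from different sheep hairpins. Summed over its names, the level was 1078 CPM (counts scaled so that a library with 1 sequence per name totals 1000000) for ACATAGA, 296 CPM for TCATAGA, 116 CPM for ACACACC of miR-329a-3p and miR-329b-3p, and 81.4 CPM for ATGTAAC of miR-411a-3p and miR-379-3p. The seed ACACACC was also present outside the cluster, in miR-362-3p. The sheep sequence of miR-412-3p, with the same seed as miR-411b-5p, is listed under human miR-412 as its 5p arm, so that the arm name of this miRNA depends on the species. Only the strand as listed was searched for stretches of 7 bases at any position. GGTCCAC was present in 7 of 102 different member sequences (6.86%) and in 0 of 2795 known sequences outside the cluster. Among the 7 was the mouse name miR-411-3p (total count 1), which overlaps the sheep sequence of miR-411a-3p. The stretch ACATGGT was present in 7 of 102 (6.86%) against 7 of 2795 (0.250%). Among the holders of GGTCCAC were miR-380-3p, miR-411a-3p, miR-379-3p and miR-758-3p, and among those of ACATGGT were miR-495-3p, miR-369-3p and miR-655-3p. These stretches were picked because they were frequent in the cluster, and the shares describe them without a test.

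The cluster was a small part of the counts, which also hold predicted loci without a known name. Between 5572865 and 7930202 counts per library remained with 1 sequence per name, of 8062231 to 11282332 in all. The cluster took 0.672% (95% Wilson interval 0.666 to 0.678) of them in QHMM replicate 1, 0.380% (0.375 to 0.385) in replicate 2 and 0.324% (0.320 to 0.328) in replicate 3. In STH it took 0.593% (0.588 to 0.599), 0.373% (0.369 to 0.378) and 0.543% (0.538 to 0.548). The intervals cover counting error only, and the libraries lay far outside each other's intervals except QHMM replicate 2 and STH replicate 2. Mature sequences had 17 to 25 nt, with a median of 22 nt. Every library held at least 1 count for 79 of the 103 names and at least 10 counts for 50, and 14 had a mean of over 100 CPM, 55 lay from 1 to under 100 CPM and 34 lay under 1 CPM.

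The 10 most abundant names held 69.1% of the summed level, and 9 names of the miR-376 family alone held 31.7%. As near-identical names can hold the same reads, the family was also taken with 1 name per overlapping sequence, which left 5 of its names with 26.6% of the level. miR-376c-3p was the highest with a mean of 853 CPM, which placed it at rank 75 of all names. Its level was 1037, 698 and 507 CPM in QHMM replicates 1 to 3 and 1172, 704 and 998 CPM in STH replicates 1 to 3. The breeds overlapped, at 748 ± 268 CPM (SD, n = 3) for QHMM and 958 ± 236 CPM (SD, n = 3) for STH.

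miR-381-3p was second, at 834, 265 and 239 CPM in QHMM and 906, 479 and 922 CPM in STH. QHMM replicates 2 and 3 were below all of STH, whereas QHMM replicate 1 lay within its range. Among the members it had one of the wider spreads, 3.86-fold between the highest and the lowest library.

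miR-411a-5p, from a hairpin near the start of the cluster, had 531, 347 and 289 CPM in QHMM and 456, 326 and 435 CPM in STH. miR-494-3p had 393, 298 and 268 CPM in QHMM and 400.2, 249 and 339 CPM in STH. In both breeds the library with the highest value was replicate 1, and the ranges overlapped. The following names were miR-376b-3p (229 CPM), miR-379-5p (227 CPM), miR-376e-3p (225 CPM), miR-3959-5p (176 CPM), miR-299-5p (143 CPM) and miR-495-3p (141 CPM). The plot of these names shows QHMM replicate 1 above QHMM replicates 2 and 3 for each of them.

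**Figure D1:**
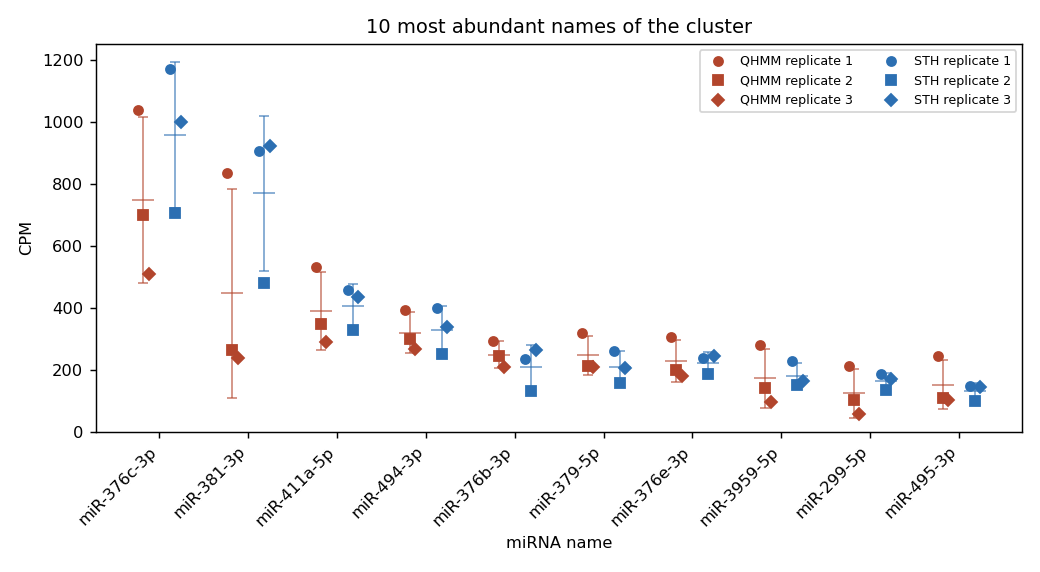
CPM of the 10 most abundant names of the cluster in each library (points; red QHMM, blue STH), with the mean and SD of each breed (bars, n = 3). The breeds overlapped for all 10, and QHMM replicate 1 was the highest QHMM library for each.

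Levels differed strongly along the locus although the hairpins are neighbours. The RefSeq order placed 46 hairpins, from miR-3955 to miR-410, and the mean of both arms ran from 0.250 CPM for miR-654 to 868 CPM for miR-376c. miR-654 lay between miR-376d (62.0 CPM) and miR-376b. In this order 13 hairpins were over 100 CPM and 13 under 5 CPM. The first 15 hairpins, miR-3955 to miR-495, held 36.8% of the summed level, the next 11, miR-3958 to miR-487b, held 49.3%, and the last 20 held 14.0%. The borders of these stretches were set after the values were seen.

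**Figure D2:**
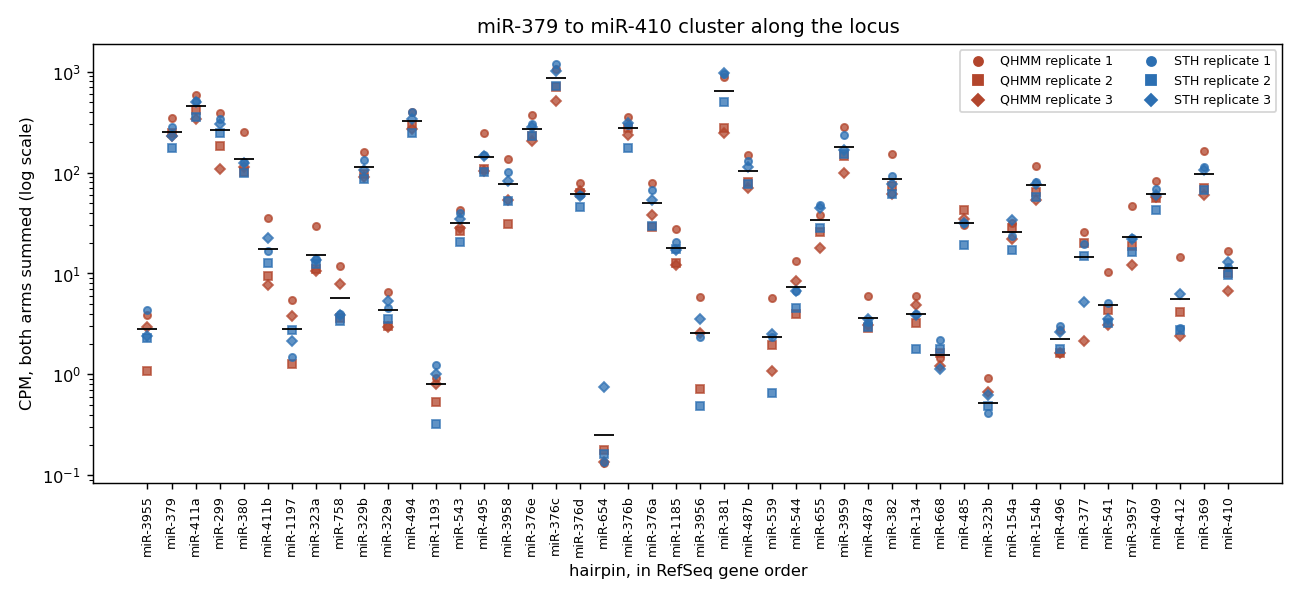
CPM of each hairpin (both arms summed, log scale) in RefSeq gene order, with 1 point per library (red QHMM, blue STH) and the mean as a black dash; a library at 0 has no point. Means run from 0.250 CPM (miR-654) to 868 CPM (miR-376c), and 13 of the 46 hairpins lie over 100 CPM.

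Both arms had a sequence for 48 hairpin names, and the 3p arm had more counts in 33 of them and the 5p arm in 15. With sheep sequences only there were 44 hairpins, with 30 led by the 3p arm and 14 by the 5p arm. Of 42 hairpins with at least 100 counts, 24 gave over 90% of the counts from 1 arm. In 14 hairpins each arm had at least 10 counts in each library, and in 13 of these the same arm led in all 6 libraries. The 3p arm led in miR-376c (98.2% of both arms), miR-381 (95.2%), miR-376b (83.3%), miR-376e (83.2%), miR-154a (70.0%), miR-485 (69.4%) and miR-409 (61.8%). The 5p arm led in miR-3959 (98.0%), miR-376a (90.7%), miR-379 (89.9%), miR-411a (87.8%), miR-382 (73.5%) and miR-299 (54.8%). The miR-376 family thus held hairpins with either leading arm, with the reservation that reads of miR-376a-3p, miR-376b-3p and miR-376d may not be separable.

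miR-299 had a nearly even pair of arms, with a 3p share of 45.4% ± 1.73 (SD, n = 3) in QHMM and 45.2% ± 0.376 (SD, n = 3) in STH. In miR-369, whose 3p form is known to bind AU-rich elements of mRNAs, the leading arm changed. The 3p share was 59.4% (95% Wilson interval 56.6 to 62.1), 44.3% (39.5 to 49.3) and 58.7% (54.1 to 63.2) in QHMM and 52.3% (48.9 to 55.6), 51.6% (46.8 to 56.3) and 59.4% (56.1 to 62.7) in STH. QHMM replicate 2 was the only library of miR-369 in which the 5p arm led. In miR-409 the 3p share was 56.2% (52.3 to 60.1), 75.2% (70.1 to 79.6) and 72.2% (67.7 to 76.2) in QHMM and 59.5% (55.2 to 63.7), 58.8% (52.7 to 64.6) and 54.8% (50.3 to 59.3) in STH. QHMM replicates 2 and 3 stood above the other 4 libraries, and the breeds overlapped through QHMM replicate 1.

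**Figure D3:**
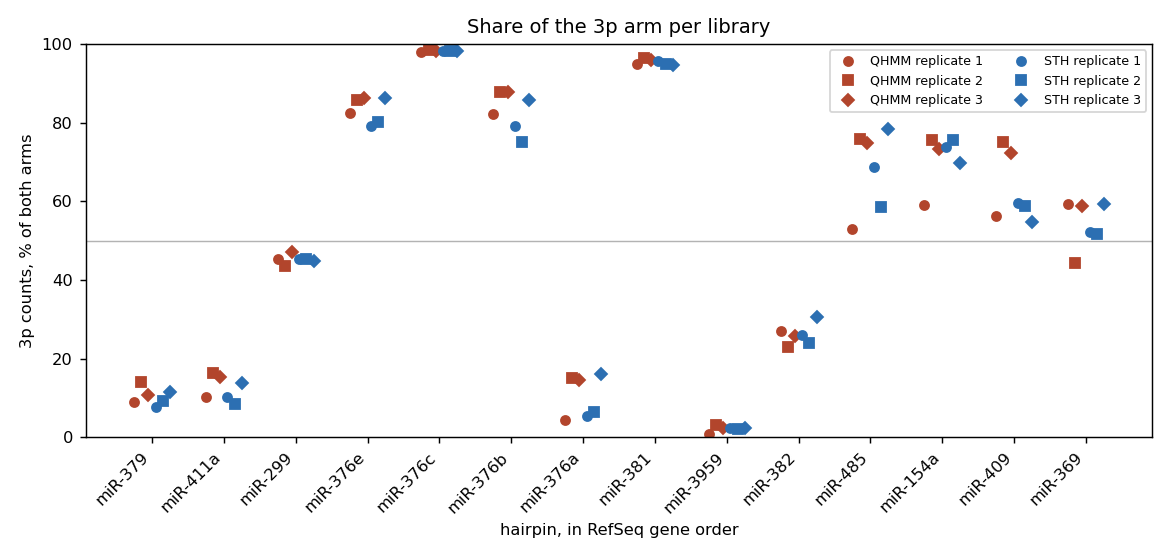
Share of 3p counts among the counts of both arms (%) in each library (red QHMM, blue STH) for the 14 hairpins with at least 10 counts from each arm in each library, in RefSeq gene order; the grey line is 50%. miR-376c stays near 98.2% and miR-299 near 45.2% in all libraries, while miR-485 runs from 52.9% to 78.3%.

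miR-377 stood apart, and it was chosen after its values were seen. miR-377-3p had counts of 163, 96 and 4 in QHMM and of 120, 73 and 32 in STH, a 40.2-fold range of CPM. The count of 4 in QHMM replicate 3 has an exact Poisson 95% interval of 1.09 to 10.2, below each other library. The 5p arm of the same hairpin had counts of 33, 15 and 12 in QHMM and of 23, 20 and 9 in STH, a 3.85-fold range of CPM. The 3p share was therefore 25.0% (95% Wilson interval 10.2 to 49.5) in QHMM replicate 3 and between 78.0% and 86.5% in the other 5 libraries. The standard error of its log2 fold change between breeds, 1.15, was the largest among the members tested.

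Most members were highest in 1 and the same library, QHMM replicate 1. On the scale log2(CPM + 0.5), the 65 members with enough counts for the comparison of breeds had a median deviation from their own mean of 0.68 in QHMM replicate 1, -0.23 in replicate 2 and -0.40 in replicate 3. In STH it was 0.18, -0.36 and 0.12. Over all 1274 names with enough counts, the median deviations lay between -0.15 and 0.13. QHMM replicate 1 had the highest CPM for 50 of the 65 members (76.9%), against 25.9% of all names. With TMM factors, which rescale libraries so that most names match, it was highest for 45 (69.2%) against 18.5%. With at least 10 counts in each library it was highest for 39 of 50 (78.0%) against 25.9% of 930 names. The lowest library was QHMM replicate 3 for 26 members, STH replicate 2 for 23 and QHMM replicate 2 for 12.

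Within QHMM, replicate 1 exceeded both others for 58 of 65 members, as against 44.9% of all names. Within STH, replicate 2 was below both others for 54 of 65, as against 43.0% of all names. The median SD of the members on this log2 scale was 0.63 in QHMM and 0.35 in STH, and that of all names was 0.40 in QHMM and 0.34 in STH. Of 50 members with at least 10 counts in each library, 43 differed at least 2-fold between their highest and lowest library, with a median of 2.48-fold. The members are made from neighbouring hairpins and are not independent of each other.

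**Figure D4:**
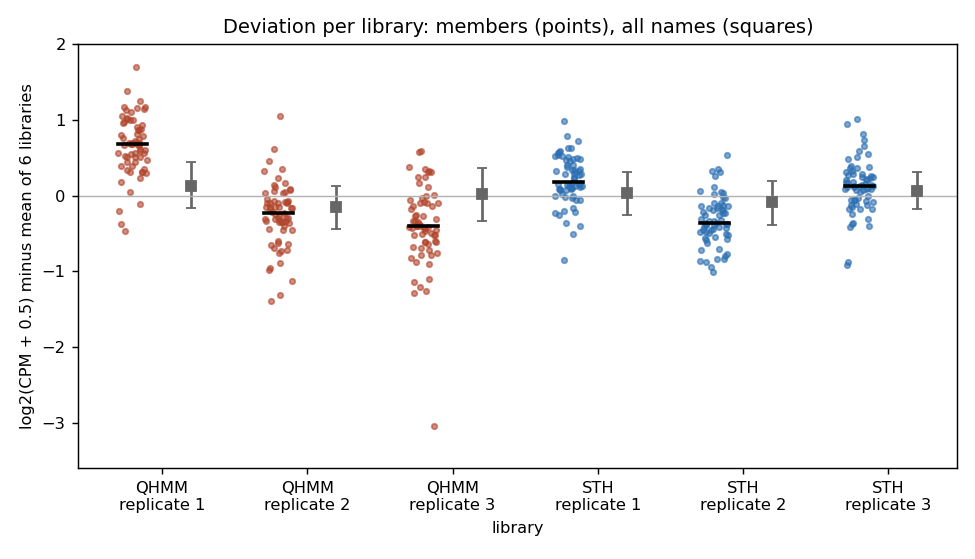
Deviation of log2(CPM + 0.5) from the mean of the 6 libraries, by library: 65 members (points; red QHMM, blue STH) with their median (black line), and all 1274 names tested (grey square, median; bar, lower to upper quartile). The members sit high in QHMM replicate 1 (median 0.68) and low in QHMM replicate 3 (-0.40) and STH replicate 2 (-0.36), and the low point in QHMM replicate 3 is miR-377-3p.

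Single members, picked as examples of this spread, showed how wide it was. miR-380-3p had 251, 102 and 113 CPM in QHMM and 128, 98.7 and 124 CPM in STH, so that QHMM replicate 1 alone was high. miR-3958-3p had 138, 30.9 and 54.0 CPM in QHMM and 101, 52.5 and 82.5 CPM in STH, a 4.46-fold range. miR-412-3p, at low level, had 14.3, 3.77 and 2.15 CPM in QHMM and 2.05, 2.75 and 6.18 CPM in STH. An exception was miR-485-3p, from a miRNA studied at neuronal synapses, which was at 15.9 CPM in QHMM replicate 1 and at 32.3 and 25.9 CPM in replicates 2 and 3. Its STH values of 22.0, 11.2 and 25.0 CPM overlapped with these.

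Markers of other cells were measured beside the cluster. Red blood cell miRNAs (6 names of miR-451, miR-144 and miR-486) summed to 18967, 19922 and 84308 CPM in QHMM and to 7299, 13838 and 8550 CPM in STH, so that they were highest in QHMM replicate 3, where members of the cluster were lowest most often. Muscle fibre miRNAs (13 names) summed to 127629 to 196093 CPM in QHMM, with the highest value in replicate 1, and to 135138 to 138310 CPM in STH. This sum was mostly miR-133, which like miR-499-5p was highest in QHMM replicate 1 (158425 and 3130 CPM). miR-499-5p was higher in every QHMM library (1233 to 3130 CPM) than in any of STH (615 to 1195 CPM). So were miR-499-3p (301 to 699 against 136 to 223 CPM) and miR-208b-3p (109 to 189 against 56.9 to 65.9 CPM). The same held at low level for miR-1-5p (3.18 to 3.23 against 2.32 to 2.52 CPM). In contrast, miR-206-3p was lower in every QHMM library (28539 to 35806 CPM) than in any of STH (38267 to 40746 CPM). The breeds overlapped for the other muscle fibre names. miR-1-3p was highest in STH replicate 1 (573 CPM) and miR-208b-3p in QHMM replicate 3 (189 CPM). Vessel wall miRNAs (9 names) ranged from 45253 to 78324 CPM, fibroblast miRNAs (5 names) from 1948 to 3744 CPM and epithelial miRNAs (14 names) from 3.89 to 32.1 CPM, highest in QHMM replicate 1. Leukocyte miRNAs (9 names) summed to 1966, 1799 and 1790 CPM in QHMM and to 1465, 1189 and 1442 CPM in STH. Like the red blood cell sum, this sum was higher in every QHMM library than in any of STH. Like the cluster, it was highest in QHMM replicate 1 and lowest within STH in replicate 2. Unlike it, the cluster was lower in QHMM replicates 2 and 3 than in STH replicates 1 and 3. miR-150 was highest in QHMM replicate 1 (1160.5 CPM), miR-142-3p in QHMM replicate 3 (606 CPM) and miR-142-5p in QHMM replicate 2 (242 CPM). miR-223-3p was highest in STH replicate 3 (274 CPM) and miR-155-5p in STH replicate 1 (40.0 CPM). The breeds did not overlap for miR-142-3p, miR-142-5p, miR-451-5p and miR-144-3p. They overlapped for miR-150, miR-223-3p, miR-155-5p, miR-144-5p and miR-486. Neuronal miRNAs (5 names) stayed between 0.546 and 2.27 CPM, near 0 in every library. The part of cell composition in the cluster's levels was not tested, and in whole muscle fewer cells of a type and less RNA per cell cannot be told apart.

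The breeds were compared to ask whether members of the cluster differ between a meat breed and STH. Counting 1 name for sequences that overlap (94 names), the cluster summed to 6252, 3499 and 2951 CPM in QHMM and to 5555, 3448 and 5068 CPM in STH. The means were 4234 ± 1769 CPM (SD, n = 3) for QHMM and 4690 ± 1103 CPM (SD, n = 3) for STH, a ratio of 0.903 with overlapping breeds. Over all 103 names the sums were 4586 ± 1871 CPM (SD, n = 3) and 5033 ± 1152 CPM (SD, n = 3), a ratio of 0.911. The difference was smaller than the spread between replicates in either breed.

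edgeR's quasi-likelihood test was fitted to all names and the p-values were adjusted by Benjamini-Hochberg over all of them. Of 103 members 65 passed the filter on low counts, and 0 of these passed an adjusted p of 0.05, while 28 of 1274 names did (2.2%). The 38 members left out had means of at most 1.55 CPM. DESeq2 also called 0 members, and 49 of 1274 names (3.85%). At an unadjusted p under 0.05, 2 members of 65 passed in edgeR and 1 in DESeq2, while 174 of 1274 names (13.7%) passed in edgeR and 153 (12%) in DESeq2. Log2 fold changes, QHMM over STH, were above 0 for 36 members and below 0 for 29, with a median of 0.09 beside 0.03 for all names and a range from -0.95 to 1.01. Their standard errors had a median of 0.38.

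The 2 members at an unadjusted p under 0.05 were higher in QHMM. miR-758-3p had 11.4, 3.59 and 7.79 CPM in QHMM and 3.82, 3.40 and 3.78 CPM in STH, with a log2 fold change of 1.01 (SE 0.39, adjusted p = 0.268 in edgeR). STH was tight and QHMM wide, and QHMM replicate 2 lay within the range of STH. miR-487a-3p had 4.11, 1.79 and 2.55 CPM in QHMM and 1.37, 1.13 and 1.77 CPM in STH, with a log2 fold change of 0.95 (SE 0.43, adjusted p = 0.355 in edgeR). Its breeds did not overlap, but only by 1.79 against 1.77 CPM. The 5p arm of the same hairpin, miR-487a-5p, went the other way at -0.67 (SE 0.48, adjusted p = 0.579 in edgeR). With both arms summed, the breeds overlapped for miR-487a. The next highest fold change was that of miR-1197-3p, 0.86 (SE 0.47), with breeds that overlapped.

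Only 3 of 65 members (4.62%) had breeds that did not overlap, as against 219 of 1274 names (17.2%). All 3 were higher in QHMM. They were miR-487a-3p, miR-376d with 78.2, 62.4 and 66.4 CPM in QHMM against 60.2, 45.8 and 58.6 CPM in STH, and miR-409-3p with 46.2, 41.8 and 41.8 CPM against 40.6, 24.9 and 32.9 CPM. The log2 fold changes were 0.32 (SE 0.27) for miR-376d and 0.40 (SE 0.29) for miR-409-3p, with adjusted p = 0.630 and 0.579 in edgeR.

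The lowest fold changes belonged to both arms of miR-381 and to miR-299b-5p. miR-381-5p had 44.3, 9.87 and 10.2 CPM in QHMM and 42.1, 26.1 and 51.2 CPM in STH, with a log2 fold change of -0.95 (SE 0.51, adjusted p = 0.441 in edgeR). As for the 3p arm, QHMM replicates 2 and 3 were below all of STH and replicate 1 within it. miR-381-3p had a log2 fold change of -0.83 (SE 0.42, adjusted p = 0.417 in edgeR). miR-299b-5p had 4.64, 0.718 and 1.21 CPM in QHMM and 4.10, 3.56 and 4.79 CPM in STH, with a log2 fold change of -0.95 (SE 0.52, adjusted p = 0.447 in edgeR). This name comes from a rat sequence with no place in the sheep gene order, and it overlaps the sheep sequence of miR-299-5p, which has the same seed, so that their reads may not be separable. miR-299-5p had a mean of 143 CPM and a log2 fold change of -0.43 (SE 0.38).

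The count of members past the threshold changed only when QHMM replicate 1 was left out. That library exceeded QHMM replicates 2 and 3 for 58 of 65 members, so that leaving it out lowers their fold changes by design. Without it, 3 of 65 members passed, all lower in QHMM, beside 29 of 1351 names lower in QHMM (2.15%). They were miR-381-5p at -1.95 (SE 0.37, adjusted p = 0.00966 in edgeR), miR-381-3p at -1.56 (SE 0.33, adjusted p = 0.0235) and miR-299b-5p at -2.06 (SE 0.50, adjusted p = 0.0476). The arms of miR-381 come from 1 hairpin and are not separate evidence. The rat name miR-299b-5p rests on few counts (4 in QHMM replicate 2), and the abundant sheep form miR-299-5p did not pass in the same fit, at -0.97 (SE 0.36, adjusted p = 0.209). The median log2 fold change of the members turned from 0.09 to -0.28, with 17 above 0 and 48 below, and the ratio of summed levels went from 0.903 to 0.688. Leaving out any other library gave 0 members. No label sets QHMM replicate 1 apart, and the values with all 6 libraries stand as the comparison.

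**Figure D5:**
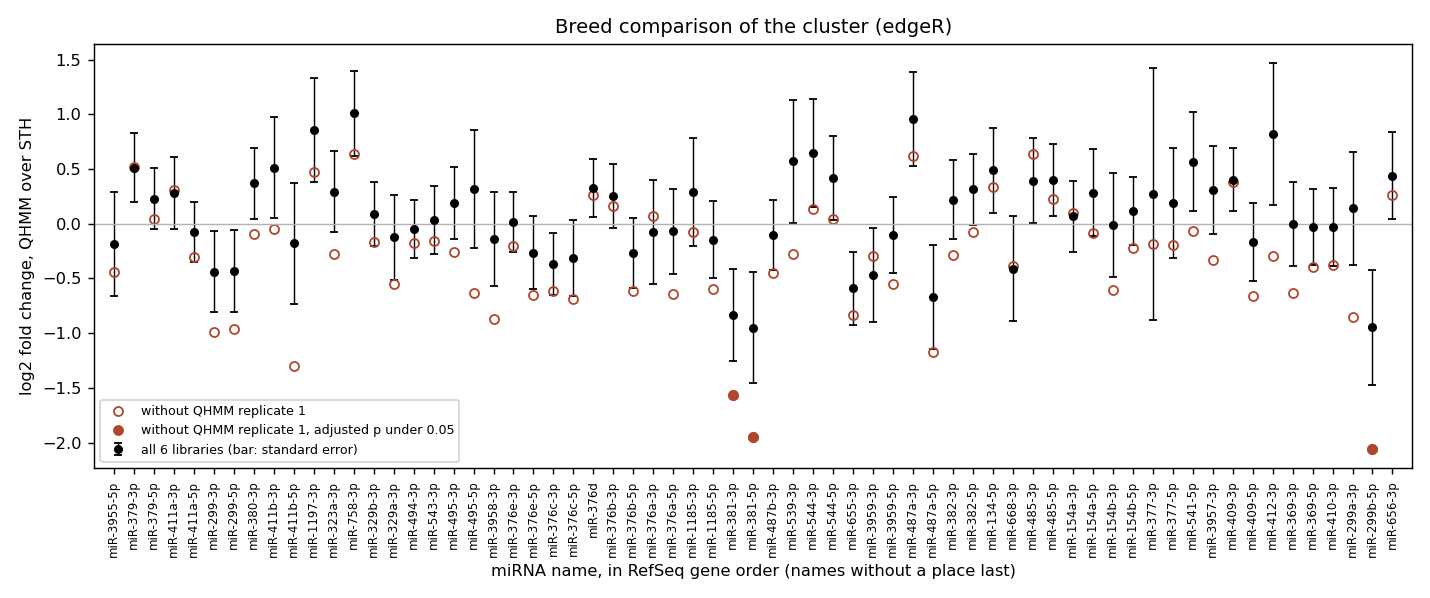
Log2 fold change, QHMM over STH, of the 65 members tested in edgeR, in RefSeq gene order: all 6 libraries with the standard error (black), and without QHMM replicate 1 (red; filled where adjusted p is under 0.05). With all libraries the values run from -0.95 to 1.01 and no member passed; without QHMM replicate 1 most values move down, and 3 members passed.

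Other miRNAs of the DLK1-DIO3 region that are not part of the cluster gave the setting. The 8 hairpins that RefSeq places between GTL2 and miR-3955 (miR-493, miR-665, miR-431, miR-433, miR-127, miR-432, miR-136 and miR-370) had 16 names, of which 8 were tested and 0 passed. miR-136, which like miR-127 is transcribed antisense to the RTL1 gene, had 478, 190.4 and 258 CPM in QHMM and 303, 179 and 347 CPM in STH. miR-127 had 312, 211 and 146 CPM in QHMM and 246, 162 and 222 CPM in STH. All 8 tested names were highest in QHMM replicate 1, the library in which most members of the cluster were highest, and STH replicate 2 had the lowest sum. The summed level was 775 ± 330 CPM (SD, n = 3) for QHMM and 680 ± 170 CPM (SD, n = 3) for STH, and the log2 fold changes were above 0 for 8 of 8 with a median of 0.32 and a smallest adjusted p of 0.497 in edgeR. A longer list adds miR-337, miR-770, miR-342, miR-345 and miR-1247, which RefSeq does not place between GTL2 and miR-3955. Whether these lie in the DLK1-DIO3 region was not checked here. On the longer list, 12 of 24 names were tested, 0 passed and 10 had log2 fold changes above 0.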

How the data were processed

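Small RNA libraries of longissimus muscle were used, 3 from QHMM and 3 from STH, grouped by the breed in the labels. The authors deposited whole-number read counts without normalization, with 1 value per library for each listed sequence. The submitters' processing notes name the genome build Oar_v3.1 and DESeq. The aligner is not named in the sources used here, and neither is the rule for reads with several matches. The methods of the study do not describe these libraries.

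Each name was represented by its sequence with the most counts, and CPM were computed from the total of these names. Replicates of 1 breed differed far beyond counting noise (chi-square over its degrees of freedom of 80.3 or more), so that no library was counted as a duplicate. To compare QHMM with STH, edgeR 4.0.16 (R 4.3.3) was fitted to the names kept by filterByExpr, using TMM factors, the robust quasi-likelihood test and no covariate. Benjamini-Hochberg adjustment ran over all names tested, with a threshold of 0.05, and a positive log2 fold change means a higher level in QHMM. Fits with DESeq2 1.42.0, other factors, other filters, a replicate block, summed sequences of 1 name, and each library left out served as alternatives. The edgeR fit was tested on simulated data, in which names varied independently of each other. Arm shares, summed levels and deviations were described without a test. Wilson and exact Poisson intervals used scipy 1.17.1, with pandas 2.3.3 and Python 3.11.15.

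RefSeq genes (assembly ARS-UI_Ramb_v3.0) served only for gene order, which placed 46 hairpins with 91 of the names. No genome of the build was used here. The named members were the 10 with the highest mean, the 3 largest fold changes in each direction, members past the threshold, both arms of hairpins with at least 10 counts per arm in each library, and members with a common seed and at least 10 counts. Some further members, among them miR-377-3p, miR-380-3p and miR-3958-3p, were named outside this rule. Members and lists were chosen with earlier results of these data known. The sheep name miR-323c fell outside the list.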

Additional observations from a re-analysis of the deposited data

How the results depend on the processing

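The count of all names past the threshold moved from 28 to 64 without a filter, to 8 when each library had to hold at least 10 counts, and to 49 with DESeq2. Leaving out 1 library gave 16 to 35 names, with 16 without QHMM replicate 3, 18 without STH replicate 2 and 16 without STH replicate 3. The number of members past the threshold stayed at 0 under every alternative except without QHMM replicate 1 (0 to 3 over the libraries left out). The median log2 fold change of the members ran from -0.28 to 0.25 and the ratio of summed levels from 0.688 to 1.04 over the libraries left out. For 15 named members, 175 of 192 alternative values kept direction and side of the threshold, 3 passed it and 14 changed sign, in 5 members close to 0. Without a filter the log2 fold change of miR-494-3p went from -0.05 to 0.029 and that of miR-411a-5p from -0.08 to 0.0034. miR-376e-3p went from 0.02 to -0.0055 with upper-quartile factors, -0.017 with at least 10 counts and -0.00024 with summed sequences. Over the libraries left out, log2 fold changes ran from -0.55 to 0.16 (miR-3959-5p), -0.31 to 0.073 (miR-411a-5p), -0.26 to 0.37 (miR-495-3p), -0.20 to 0.14 (miR-376e-3p) and -0.18 to 0.089 (miR-494-3p). The cause was not tested.

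The labels give no origin for the replicate numbers. Same-numbered libraries correlated at 0.0595, 0.241 and 0.125 in their deviations from the breed means, so that the numbers were not taken as pairs, although each library correlated best with its own number. With a replicate block, 26 names and 0 members passed, the members' median was 0.06 and miR-376e-3p was at -0.0025. A design of 3 against 3 libraries limits precision, and members under about 10 counts rest on few reads.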

Other observations

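The use of arms moved between libraries in the cluster. In the 14 hairpins with at least 10 counts from each arm in each library, the median deviation of the log2 ratio of 3p to 5p counts from its mean was -0.19 in QHMM replicate 1, 0.43 in replicate 2 and 0.22 in replicate 3. In STH replicates 1 to 3 it was -0.06, -0.17 and 0.23. In 68 other hairpins with as many counts, the medians lay between -0.05 and 0.04. The ratio was above its mean in QHMM replicate 3 for 13 of 14 hairpins of the cluster and for 35 of 68 others.

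QHMM replicates 2 and 3 and STH replicate 3 had the 3 highest 3p shares in 6 of the 14 hairpins (miR-376a, miR-376b, miR-376e, miR-379, miR-411a and miR-485), as in 4 of 68 other hairpins. In miR-376a the 3p share was 4.49% (95% Wilson interval 3.11 to 6.46), 15.0% (10.3 to 21.4) and 14.5% (10.9 to 19.1) in QHMM and 5.49% (3.80 to 7.87), 6.52% (3.77 to 11.1) and 16.2% (13.0 to 20.0) in STH. In miR-485 it was 52.9% (46.4 to 59.3), 75.9% (70.1 to 81.0) and 74.8% (69.2 to 79.7) in QHMM and 68.8% (62.6 to 74.4), 58.5% (49.5 to 67.0) and 78.3% (72.8 to 82.9) in STH. This grouping crosses the breeds, was seen in the data and was not tested. The miR-376 hairpins have near-identical sequences, so that these 6 hairpins are not independent of each other.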
